A study of Mus musculus with 22 samples.

Results

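The miR-10, miR-99/100 and miR-125 microRNAs (miRNAs) are 8 mature products, taken by name from the 1881 mouse miRNAs on the array: mmu-miR-10a-5p, mmu-miR-10b-5p, mmu-miR-99a-5p, mmu-miR-99b-5p, mmu-miR-100-5p, mmu-miR-125a-5p, mmu-miR-125a-3p and mmu-miR-125b-5p (named from here on without the species prefix). They were measured on 22 single-colour Agilent arrays, each hybridised with Cy3-labelled total RNA of small intestine, serum or feces. All samples came from male mice of 8 weeks. The mice received X-rays of 10 Gy, given at 1.0 Gy per minute, or 0 Gy, which served as the control. Intestine and feces had 4 arrays at each dose, while serum had 2 arrays at 0 Gy and 4 at 10 Gy. The strain and the interval between exposure and collection are not given in the labels. Whether replicates are separate animals is not stated either, so that p-values measure the spread between samples, which may be technical.

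MiRNAs are short RNAs of which bases 2 to 8, the seed, pair with target messenger RNAs and lower their output. The miR-10 genes lie inside the Hox gene clusters, which set position along the body axis. The miR-99/100 and miR-125 genes flank a let-7 gene in several copies of the same cluster, and miR-125 is the vertebrate counterpart of lin-4, the first miRNA described in the worm. miR-125b is known to target the messenger RNA of the tumour suppressor p53, and the miR-99/100 family is known to target mTOR and the chromatin remodeller SMARCA5, which takes part in the response to DNA damage. A 5p and a 3p miRNA are the arms of 1 hairpin.

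All 8 of 8 mature sequences were found in RefSeq (GRCm38.p6). They are shown 5′ to 3′ because the families are defined by the seed, in capitals, and because some relatives differ by a single base outside it.
miR-10a-5p: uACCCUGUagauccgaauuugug
miR-10b-5p: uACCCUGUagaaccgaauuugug
miR-99a-5p: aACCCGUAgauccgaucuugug
miR-100-5p: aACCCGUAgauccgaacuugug
miR-99b-5p: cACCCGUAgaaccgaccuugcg
miR-125a-5p: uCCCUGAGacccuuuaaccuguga
miR-125b-5p: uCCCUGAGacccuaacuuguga
miR-125a-3p: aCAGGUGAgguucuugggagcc

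The seed ACCCUGU was shared by miR-10a-5p and miR-10b-5p, and ACCCGUA by miR-99a-5p, miR-99b-5p and miR-100-5p. The seed CCCUGAG was held by 5 mature mouse miRNAs of the RefSeq table, namely miR-125a-5p, miR-125b-5p, miR-351-5p, miR-6367 and miR-6394. CAGGUGA, the seed of miR-125a-3p, was found in 1 mature miRNA only. Counting from 1 at the 5′ end and giving the base of the first-named miRNA first, miR-10a-5p and miR-10b-5p differ by U12A, and miR-99a-5p and miR-100-5p by U16A. miR-99b-5p differs from miR-99a-5p at 4 positions (A1C, U11A, U16C and U21C) and from miR-100-5p also at 4 (A1C, U11A, A16C and U21C). miR-125a-5p and miR-125b-5p share their first 13 bases and are 24 and 22 bases long. The sequences of the array probes were not used here, so binding of miR-10a-5p to a miR-10b-5p probe, or of miR-99a-5p to a miR-100-5p probe, was not tested. The share of G and C was 43.5% in both miR-10 members, 50% in miR-99a-5p, miR-100-5p, miR-125a-5p and miR-125b-5p, 59.1% in miR-125a-3p and 63.6% in miR-99b-5p.

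In RefSeq coordinates of GRCm38.p6, miR-10a-5p lies at chr11:96317186-96317208 inside the span of Hoxb3, with Hoxb4 as its other coding neighbour. miR-10b-5p lies at chr2:74726074-74726096 within the spans of Hoxd3 and Hoxd4. The most compact cluster is on chromosome 17, where Mir99b, Mirlet7e and Mir125a span 692 bases within Spaca6. It holds miR-99b-5p (chr17:17830194-17830215), let-7e-5p (chr17:17830366-17830387), miR-125a-5p (chr17:17830817-17830840) and miR-125a-3p (chr17:17830855-17830876). On chromosome 16, Mir99a, Mirlet7c-1 and Mir125b-2 span 47408 bases, with miR-99a-5p at chr16:77598940-77598961. On chromosome 9, Mir100, Mirlet7a-2 and Mir125b-1 span 50578 bases of the long noncoding gene Mir100hg, with miR-100-5p at chr9:41531437-41531458. miR-125b-5p is made from both longer clusters (chr9:41581940-41581961 and chr16:77646279-77646300), so its signal cannot be assigned to either. All 8 mature miRNAs are on the plus strand.

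Most of the 8 miRNAs were measured in intestine alone. All 8 were detected on all 8 intestine arrays, where detected means that at least 50% of the spots of 1 of its probes were well above background. miR-10b-5p, miR-99a-5p, miR-99b-5p, miR-100-5p and miR-125a-5p were detected on 0 of the 6 serum arrays and 0 of the 8 feces arrays. miR-10a-5p was detected on 1 of 4 arrays of unirradiated feces and on no other array of feces or serum. miR-125b-5p was detected on 2 of 2 arrays of unirradiated serum and on no irradiated serum or feces array. miR-125a-3p stood apart from these, with detection on 8 of 8 feces arrays, 2 of 2 arrays of unirradiated serum and 2 of 4 of irradiated serum. Of the 268 miRNAs detected on all intestine arrays, 61 (22.8%) were detected on no serum or feces array, and 5 of the 8 were among them. None of the 8 was among the 81 miRNAs detected on all 22 arrays.

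**Figure D1:**
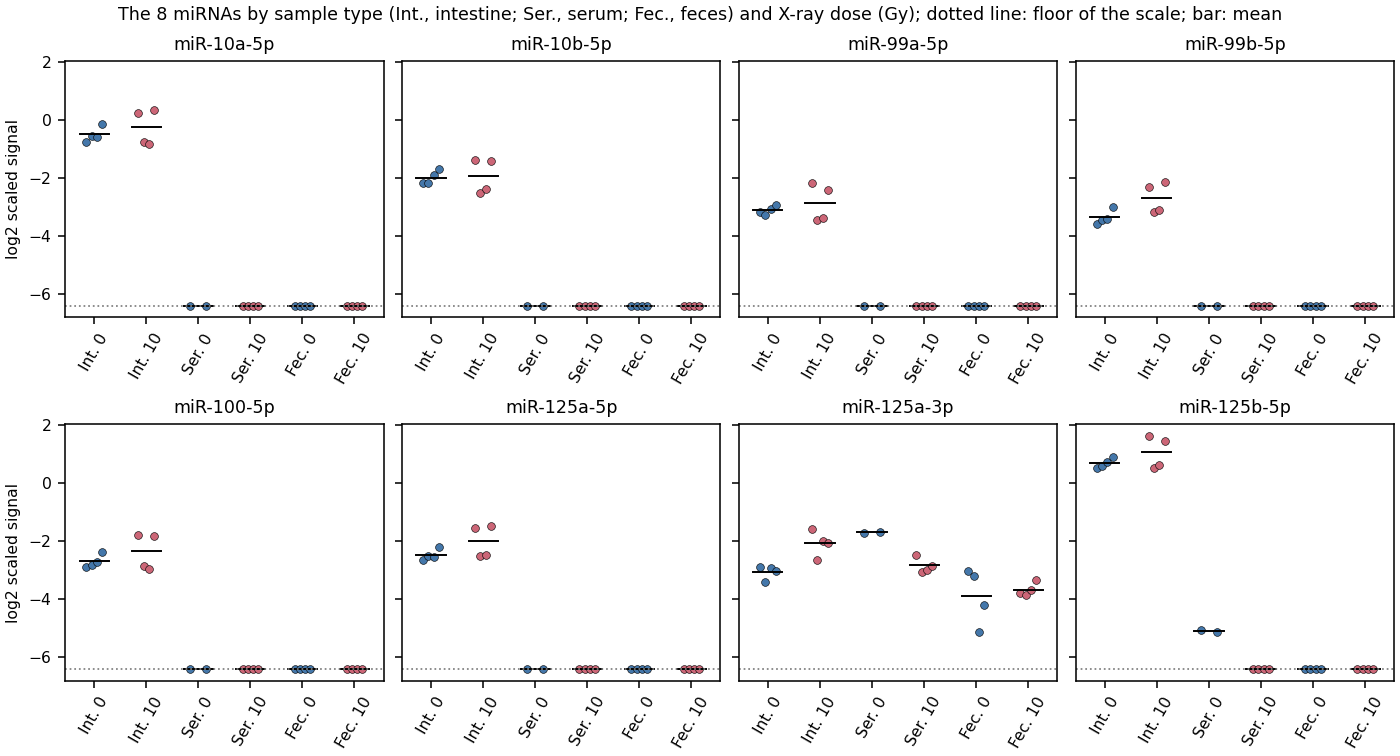
Each panel shows 1 miRNA as the log2 processed signal, scaled by a reference percentile of commonly detected miRNAs, against sample type and dose in Gy; points are arrays, bars are means and the dotted line is the floor of -6.41. The 5p miRNAs stand at the floor in serum and feces except miR-125b-5p in unirradiated serum, whereas miR-125a-3p is above the floor on every array.

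Levels in unirradiated samples were compared on 1 scale for all arrays, in a limma fit of all 6 groups over 749 miRNAs. The 3 sample types were on 3 different slides, and the effects of type and slide cannot be told apart. Of all tested miRNAs 59.5% differed between feces and intestine and 35.2% were lower in feces. This share is no comparison for the 7 miRNAs other than miR-125a-3p, which stood at the floor on every feces array and were tested because intestine was high, so that their direction was fixed. For them the difference is given as a lower bound, set by the lowest signal well above background on the feces arrays and taken as the lower of the bounds of the probes of a miRNA. Unirradiated intestine was at least 65.9-fold higher than feces for miR-125b-5p, at least 43-fold for miR-99a-5p (from 1 of its 2 probes), at least 28.9-fold for miR-10b-5p, at least 21.9-fold for miR-125a-5p, at least 20.3-fold for miR-100-5p and at least 13.7-fold for miR-99b-5p. miR-10a-5p, detected on 1 of the 4 feces arrays, had a summed signal before scaling of 4 to 28.8 in unirradiated feces and of 349.9 to 450.5 in unirradiated intestine, and was at least 104-fold higher in intestine. These bounds depend on the scaling, in a check added after the data were seen: without it, they were 1.33-fold for miR-99b-5p, 1.97-fold for miR-100-5p, 2.13-fold for miR-125a-5p, 2.81-fold for miR-10b-5p, 4.18-fold for miR-99a-5p, 6.41-fold for miR-125b-5p and 10.2-fold for miR-10a-5p. For miR-125a-3p, measured in both, the direction turned under 4 alternatives, given with its levels in all sample types.

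Between unirradiated serum and intestine 46.5% of the 749 miRNAs differed, 29.5% being lower and 17% higher in serum. Again 6 of the 8 stood at the floor in serum and could only be lower, so the share is no comparison for them, and miR-125b-5p and miR-125a-3p were measured on both sides. miR-125b-5p averaged -5.11 ± 0.06 (SD, n = 2) in serum and 0.68 ± 0.16 (SD, n = 4) in intestine, a difference of -5.78 ± 0.22 (SE, limma adjusted p = 3.49e-13). Only 1 of its 2 probes was detected in unirradiated serum, where its summed signals before scaling were 23.1 and 10.2. Over the other settings the difference ranged from -5.87 to -2.93. Intestine exceeded serum at least 10.8-fold for miR-10a-5p, at least 4.44-fold for miR-99a-5p (1 probe), at least 2.98-fold for miR-10b-5p, at least 2.26-fold for miR-125a-5p, at least 2.1-fold for miR-100-5p and at least 1.41-fold for miR-99b-5p. When the percentile covered all miRNAs they were smaller, down to 1.22-fold for miR-100-5p and with none left for miR-99b-5p, whose fitted difference of -0.57 did not pass with normexp background correction (limma adjusted p = 0.078). Between unirradiated feces and serum 38.6% of all tested miRNAs differed. Of the 8, miR-125b-5p and miR-125a-3p differed, and the other 6 were at the floor in both on the main scale and have no order there. Without scaling miR-10a-5p was higher in feces by 0.72 (limma adjusted p = 0.0434), though detected on 1 of the 4 feces arrays only. For miR-125b-5p, at the floor in feces, serum was at least 15.8-fold higher on the main scale, from 1 probe. This bound was not computed under other scalings. Its fitted difference of -1.31 did not pass with normexp (-0.28, limma adjusted p = 0.459) or with averaged log2 probe values (-0.50, limma adjusted p = 0.13).

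In intestine after 10 Gy, miR-125a-3p, miR-125a-5p, miR-125b-5p and, alone of the miR-99/100 family, miR-99b-5p passed as higher. The scale was set by the miRNAs detected on all intestine arrays. The hairpin Mir125a and its neighbour Mir99b led, with miR-125a-3p up 2.14-fold and miR-99b-5p up 1.74-fold, followed by miR-125a-5p (1.51-fold) and miR-125b-5p (1.40-fold). These 4 of 8 rose and 0 fell in limma with Benjamini-Hochberg adjustment, against 26% of 335 tested miRNAs that rose, 15.8% that fell and 41.8% that changed in either direction. The groups did not overlap for the same 4 miRNAs, against 39.4% of all tested. The median change of the 8 was 0.47 on the log2 scale (lowest 0.17, highest 1.10), and that of all 335 miRNAs was 0.16. In such bulk tissue, a change in the number of cells of a type and a change in RNA per cell cannot be told apart.

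In the miR-10 family neither member passed. The log2 level of miR-10a-5p was -0.33, -0.34, -0.41 and -0.20 in 0 Gy replicates 1 to 4, and 0.21, -0.02, -0.36 and 0.35 at 10 Gy. Its 10 Gy replicate 3 lay inside the range of the unirradiated arrays, and the change was 0.36 ± 0.19 (SE, 95% interval -0.04 to 0.77, limma adjusted p = 0.131). miR-10b-5p had levels of -1.77, -1.96, -1.73 and -1.75 at 0 Gy and of -1.41, -1.79, -1.93 and -1.41 at 10 Gy. Its groups overlapped, 2 irradiated arrays being above all controls and 2 among them, with a change of 0.17 ± 0.18 (95% interval -0.22 to 0.56, limma adjusted p = 0.487).

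In the miR-99/100 family miR-99b-5p rose. Its log2 level was -3.18, -3.22, -3.24 and -3.06 at 0 Gy and -2.34, -2.43, -2.62 and -2.13 at 10 Gy, so that every irradiated array was above every control. The change was 0.80 ± 0.17 (SE, limma adjusted p = 0.003), and its 2 probes gave 0.75 and 0.91. miR-100-5p had levels of -2.46, -2.61, -2.56 and -2.45 at 0 Gy and of -1.81, -2.13, -2.49 and -1.83 at 10 Gy. With 10 Gy replicate 3 among the controls, its change was 0.46 ± 0.19 (95% interval 0.05 to 0.86 before adjustment, limma adjusted p = 0.0663). miR-99a-5p, 1 base away from miR-100-5p, had levels of -2.75, -3.06, -2.91 and -3.01 at 0 Gy and of -2.21, -2.72, -2.92 and -2.40 at 10 Gy. Here also 10 Gy replicate 3 lay within the controls, and the change was 0.37 ± 0.19 (95% interval -0.05 to 0.78, limma adjusted p = 0.136).

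All 3 miRNAs of the miR-125 hairpins rose, of which miR-125a-3p does not share the seed of the miR-125 family. miR-125b-5p had log2 levels of 0.95, 0.80, 0.88 and 0.83 at 0 Gy and of 1.60, 1.26, 1.07 and 1.47 at 10 Gy, without overlap, and a change of 0.49 ± 0.17 (SE, limma adjusted p = 0.0352). Its bright probe gave 0.50 and its dim probe 0.33. miR-125a-5p had levels of -2.23, -2.30, -2.39 and -2.28 at 0 Gy and of -1.57, -1.80, -2.01 and -1.45 at 10 Gy, again without overlap, and a change of 0.59 ± 0.17 (limma adjusted p = 0.0176). The other arm of its hairpin, miR-125a-3p, had levels of -2.49, -3.18, -2.76 and -3.09 at 0 Gy and of -1.60, -1.94, -1.53 and -2.06 at 10 Gy. Its change of 1.10 ± 0.20 (limma adjusted p = 0.00148) was the 27th largest increase among the 335 miRNAs, and its 4 probes gave 0.96 to 1.32. On this scale, irradiated replicates 1 and 4 were the highest and replicate 3 the lowest for each of the 7 miRNAs of 5p arms. For miR-125a-3p, replicate 3 was the highest. The former order was not confined to 5p arms. At 10 Gy miR-200b-3p (2.89, 2.45, 2.11 and 2.71) and miR-141-3p (2.38, 1.92, 1.77 and 2.29) had it too. It also depended on the scaling. Before scaling, miR-125b-5p had signals of 1679, 1583.5, 1852.3 and 1844.3 at 10 Gy, with replicate 3 the highest.

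**Figure D2:**
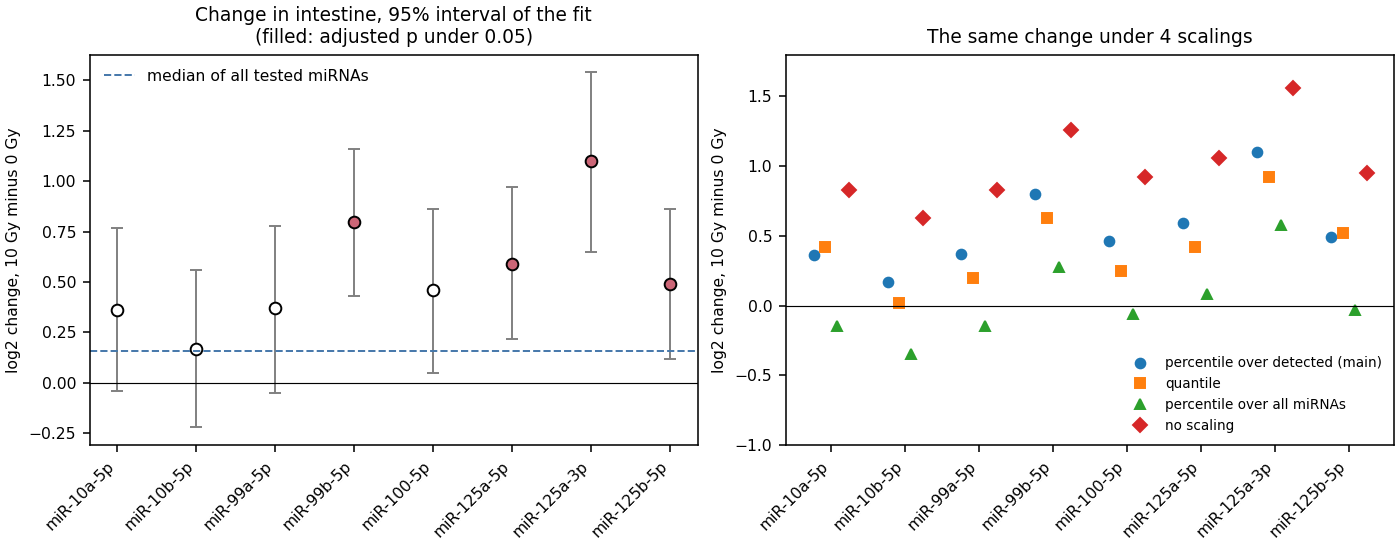
On the left, the log2 change in intestine (10 Gy minus 0 Gy, 4 arrays each) of the 8 miRNAs with its 95% interval, filled where the adjusted p is under 0.05; the dashed line is the median of all 335 tested miRNAs, 0.16. On the right, the same change under 4 scalings, where scaling by the percentile over all miRNAs turns miR-10a-5p, miR-10b-5p, miR-99a-5p, miR-100-5p and miR-125b-5p below 0 and leaving out the scaling raises all 8.

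The size of these changes, and the sign of 5 of them, depended on the scaling. Summed signals before scaling did not overlap between doses for any of the 8, as for 52.2% of all tested miRNAs, and all 8 then passed, against 55.5% that rose and 59.4% that changed. For miR-125b-5p these signals were 842.4 to 992 at 0 Gy and 1583.5 to 1852.3 at 10 Gy. With the percentile over all miRNAs 0 of 8 passed (31.9% of all passed, 6.27% upward) and 5 of the 8 changes turned negative, and with quantile normalization 3 passed upward (36.1% of all, 16.4% upward). The median of all tested miRNAs moved with the scaling as well, to 0.62 without scaling, 0.01 after quantile normalization and -0.35 when the percentile covered all miRNAs. Relative to that median the 8 changes were 0.01 (miR-10b-5p) to 0.94 (miR-125a-3p) on the main scale, and the other scalings by 1 factor per array leave these distances the same by construction. After quantile normalization they were 0.02 to 0.92.

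**Figure D3:**
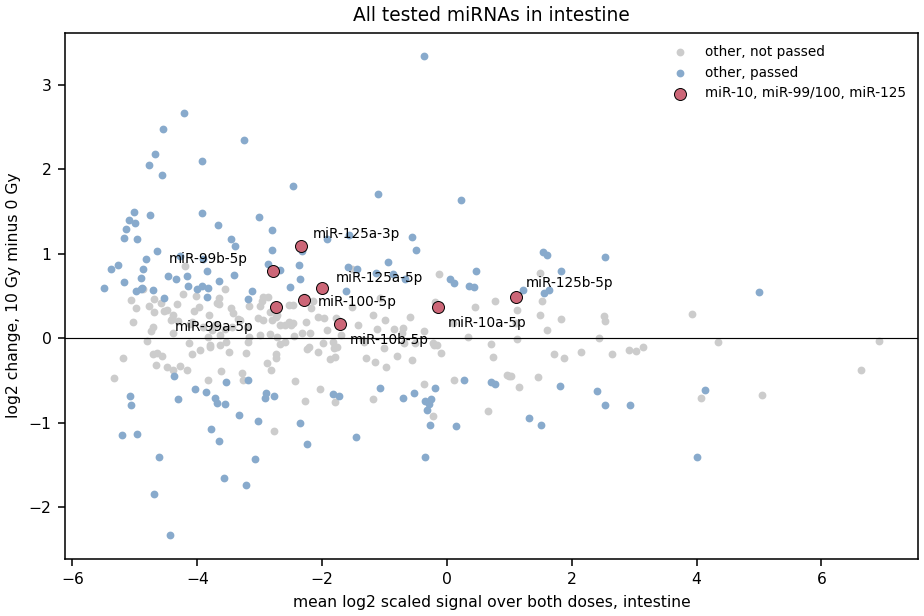
Each point is 1 of the 335 miRNAs tested in intestine, with its mean log2 scaled signal over both doses on the horizontal axis and its log2 change (10 Gy minus 0 Gy, main scaling) on the vertical axis. The 8 labelled miRNAs lie between 0.17 and 1.10 over a wide range of signal, with miRNAs that passed in both directions around them.

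Other settings and single arrays ended some of these calls. With normexp background correction, which adds an offset of 50 to every signal, miR-125a-3p (0.07), miR-99b-5p (0.07) and miR-125a-5p (0.14) did not pass. In 1 fit of all 6 groups miR-125a-3p (0.98, limma adjusted p = 0.0792), miR-125a-5p (0.48, limma adjusted p = 0.101) and miR-125b-5p (0.38, limma adjusted p = 0.211) did not pass. miR-125a-3p and miR-99b-5p passed in all 8 fits that left out 1 array. miR-125a-5p did not pass without 0 Gy replicate 3 (0.57, limma adjusted p = 0.0529) or 10 Gy replicate 4 (0.51, limma adjusted p = 0.0549), and 2 of the 8 passed in each of these fits. miR-125b-5p passed in 1 of the 8, the fit without 10 Gy replicate 3 (0.58), and had 0.41 to 0.52 in the others. Without that replicate 7 of the 8 passed, with miR-100-5p at 0.60, miR-10a-5p at 0.50 and miR-99a-5p at 0.49. With slide row as a block miR-125b-5p did not pass (limma adjusted p = 0.0573). On each slide the 0 Gy samples filled columns 1 and 2 and the 10 Gy samples columns 3 and 4, and an effect of column cannot be told apart from that of dose. Within slide row 1, with 2 arrays a dose, the changes were 1.09 for miR-125a-3p, 0.84 for miR-99b-5p, 0.60 for miR-125a-5p and 0.58 for miR-125b-5p, and none passed. Within row 2 those of miR-99b-5p, miR-125a-5p and miR-125b-5p were 0.80, 0.63 and 0.44, and of the 8 miR-125a-3p alone passed.

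Differences between relatives within 1 array do not depend on a scale factor, and 9 pairs were compared by an exact two-sided permutation test over the 4 and 4 arrays, where the smallest possible p is 0.0286. The log2 difference of miR-99b-5p to miR-100-5p was higher at 10 Gy by 0.34 (exact p = 0.0286, adjusted over the 9 pairs p = 0.0643). Each miR-99/100 member also stood higher against the let-7 miRNA of its own cluster: by 0.37 for miR-99b-5p against let-7e-5p, 0.47 for miR-99a-5p against let-7c-5p and 0.60 for miR-100-5p against let-7a-5p, with the same exact p = 0.0286 and adjusted p = 0.0643 for each. The remaining differences were 0.43 for miR-99b-5p against miR-99a-5p (exact p = 0.0571), 0.20 for miR-10a-5p against miR-10b-5p (exact p = 0.0857), 0.50 for miR-125a-3p against miR-125a-5p (exact p = 0.143), 0.10 for miR-125a-5p against miR-125b-5p (exact p = 0.143) and 0.09 for miR-100-5p against miR-99a-5p (exact p = 0.314). None of the 9 passed after adjustment. After quantile normalization, which is not a single factor, the differences to the let-7 miRNAs were 0.16 (exact p = 0.314), 0.10 (exact p = 0.514) and 0.22 (exact p = 0.0857) in the same order, and with normexp 4 of the 9 differences turned negative. let-7a-5p and let-7c-5p are also made from clusters elsewhere in the genome.

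The wider set of hairpin partners, cluster neighbours, same-seed and Hox-cluster miRNAs held 17 names, of which 3 were tested in intestine and 0 passed. let-7e-5p, which lies between Mir99b and Mir125a, changed by 0.43 ± 0.19 (SE, limma adjusted p = 0.0879), let-7c-5p by -0.10 ± 0.19 (limma adjusted p = 0.686) and let-7a-5p by -0.15 ± 0.19 (limma adjusted p = 0.568). miR-351-5p, the X-linked relative with the miR-125 seed, was detected on 0 of 8 intestine arrays.

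Markers of the cell types of the intestinal wall were read on the same arrays and scale. Of 9 epithelial miRNAs, which include miR-192-5p and the miR-200 family, 5 fell and 0 rose, and their summed scaled level ranged from 101 to 142 at 0 Gy and from 50.6 to 93.5 at 10 Gy. Of 5 miRNAs of smooth muscle and mesenchyme, 3 rose and 0 fell, with sums of 4.72 to 6.07 at 0 Gy and 5.92 to 8.14 at 10 Gy. These were miR-199a-3p (0.80 ± 0.17), miR-199a-5p (0.82 ± 0.18) and miR-214-3p (1.03 ± 0.18, limma adjusted p = 0.0011), while miR-143-3p (0.23 ± 0.18) and miR-145a-5p (0.25 ± 0.19) did not pass. Of 4 leukocyte miRNAs, 3 fell and 1 rose, with sums of 1.78 to 3.17 and 1.70 to 2.20. The endothelial miR-126a-3p did not pass (0.44 ± 0.18, limma adjusted p = 0.0627), the endothelial sums being 2.42 to 2.63 and 2.65 to 4.20. Of 3 erythrocyte miRNAs 2 were tested, and miR-451a had a change of 0.21 ± 0.26. miR-486a-5p was well above background in 0 of the 4 controls and in all 4 irradiated samples, and was tested through the irradiated samples alone. The direction of its upward call (limma adjusted p = 0.0114) was therefore fixed. The lower bound of its fold was 0.867, so no increase is established. The erythrocyte sums were 0.251 to 0.399 and 0.259 to 0.555. The number of detected miRNAs per array was 285 to 300 at 0 Gy and 332 to 389 at 10 Gy. The part of cell composition or of overall signal in the changes of the 8 miRNAs was not tested.

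miR-125a-3p was the only one of the 8 that could be followed in all 3 sample types. On the scale of all arrays its mean log2 level was highest in unirradiated serum (-1.71 ± 0.04, SD, n = 2), followed by irradiated intestine (-2.08 ± 0.45, n = 4), irradiated serum (-2.84 ± 0.26, n = 4), unirradiated intestine (-3.07 ± 0.23, n = 4), irradiated feces (-3.68 ± 0.24, n = 4) and unirradiated feces (-3.90 ± 0.99, n = 4). The ranges of each group and the next in this order overlapped. At 0 Gy, serum was higher than intestine by 1.36 ± 0.43 (SE, limma adjusted p = 0.0132), a call that was lost with normexp (0.20, adjusted p = 0.741) and without serum replicate 1 (1.39, adjusted p = 0.058) or replicate 2 (1.33, adjusted p = 0.0745), where the lone remaining serum array is assumed to vary like the other groups. Feces minus serum was -2.19 ± 0.43 (SE, limma adjusted p = 0.000398). Feces minus intestine was -0.83 ± 0.35 (limma adjusted p = 0.0498), with overlapping groups, and did not pass with slide row as a block (limma adjusted p = 0.0519).

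The 2 differences that involve feces changed sign with the scaling. Without scaling, feces was higher than serum by 1.25 and higher than intestine by 2.53, and feces minus intestine was 0.78 after quantile normalization, 0.14 when the percentile covered all miRNAs and 0.85 when only those groups were scaled together. The call of feces against intestine was also lost without feces replicate 3 (-0.42) or 4 (-0.73), or without intestine replicate 1 (-0.78), 3 (-0.79) or 4 (-0.82), and with averaged log2 probe values (-0.43), the brightest probe alone (-0.36), array weights (-0.41) or the software's total signal (-0.79). The summed signal of miR-125a-3p before scaling was 462.1, 264.1, 494.8 and 369.9 in unirradiated feces, 231.7 and 113.3 in unirradiated serum, and 78.2, 53.5, 79.3 and 60.6 in unirradiated intestine.

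**Figure D4:**
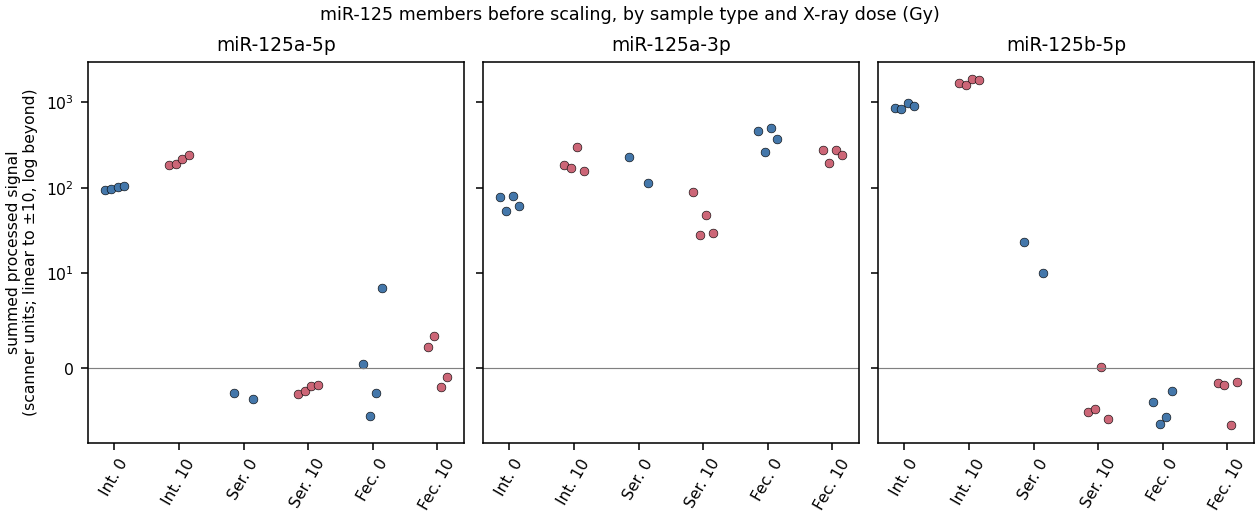
The panels show the summed processed signal of the miR-125 members before scaling (scanner units, linear to 10 and logarithmic beyond) on each array, by sample type and dose in Gy. miR-125a-5p and miR-125b-5p reach their levels in intestine only, apart from 23.1 and 10.2 for miR-125b-5p in unirradiated serum, while miR-125a-3p is between 28.4 and 494.8 on every array.

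In serum, 2 of the 8 could be tested and 0 passed, against 4.66% of 193 tested miRNAs (3.63% lower). The log2 level of miR-125a-3p was -1.16 and -0.98 at 0 Gy and -1.80, -2.41, -2.42 and -2.10 at 10 Gy. Both unirradiated arrays lay above all 4 irradiated arrays, as in 30.1% of all tested miRNAs with groups apart in either direction, and the change was -1.11 ± 0.25 (SE, 95% interval -1.70 to -0.53, limma adjusted p = 0.0505). Without 10 Gy replicate 1 it was -1.25 and passed (limma adjusted p = 0.0228), and with normexp background correction it was -0.01. All 4 of its probes gave -1.06 to -1.16, and the median of all tested miRNAs was -0.11.

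miR-125b-5p in serum was near the limit of detection. Its bright probe gave signals of 12.3 to 25.4 at 0 Gy and of -2.3 to 2.2 at 10 Gy, well above background on 2 of 2 and 0 of 4 arrays. On the log2 scale it stood at -4.49 and -4.45 at 0 Gy, just above the floor of -4.63 at which all 4 irradiated arrays were set, so the fitted change of -0.16 ± 0.18 (limma adjusted p = 0.654) is limited by that floor and no fold is given. With a lower floor the fitted change was -2.16, a value set by the choice of floor in the same way. Neither value measures the size of a fall. In the same sera the erythrocyte miRNAs miR-451a and miR-486a-5p fell by 3.41 and by 1.46 on the log2 scale, and the summed level of the 3 erythrocyte miRNAs was 17.6 to 20.6 at 0 Gy and 5.66 to 8.13 at 10 Gy. Their part in the serum values was not tested.

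In feces, miR-125a-3p was the only one tested, and it did not pass, against 7.54% of 491 tested miRNAs. Its log2 level was -0.86, -1, -2.41 and -2.17 at 0 Gy and -1.64, -1.97, -1.51 and -1.34 at 10 Gy. The irradiated arrays lay inside the range of the unirradiated arrays, of which replicates 1 and 2 were the highest of all 8 and replicates 3 and 4 the lowest. The change had a 95% interval of -0.88 to 0.87 (limma adjusted p = 0.995), which leaves both an increase and a decrease of that size possible. Over the other settings it ranged from -0.86 to 0.94 and never passed, and without scaling it was -0.65. Replicates 1 and 2 were in slide row 1, and replicates 3 and 4 in slide row 2. Smooth muscle and mesenchymal markers were detected on 0 of the 8 feces arrays, while 8 of 9 epithelial miRNAs were detected on every array of each feces group.

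The dose effects in feces and intestine could be compared for miR-125a-3p alone, since the other 7 stood at the floor in both feces groups. Its difference (feces minus intestine) was -0.76 ± 0.49 (SE, 95% interval -1.81 to 0.28, limma adjusted p = 0.348), and 10.9% of 749 miRNAs passed this test. The dose effects in serum and intestine, a comparison added after the data were seen, differed for miR-125a-3p by -2.12 ± 0.55 (serum minus intestine, limma adjusted p = 0.0215), against 7.74% of all tested miRNAs (6.28% lower). For miR-125b-5p the fit gave -1.69, but its irradiated sera are all at the floor, which sets this value, so no difference is established. For miR-125a-3p every irradiated intestine array was above every unirradiated one and every irradiated serum array below. With normexp the difference of miR-125a-3p was 0.15 and did not pass. The call was also lost without serum 0 Gy replicate 1 (-2.15, adjusted p = 0.0951) or replicate 2 (-2.09, adjusted p = 0.0563).

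Only miR-125a-3p was detected on at least 11 of the 22 arrays, as a search for similar patterns required. Of 264 candidate miRNAs, miR-22-3p had the pattern closest to it (Pearson r = 0.776 over the 22 arrays), followed by miR-30d-5p (r = 0.738) and miR-140-3p (r = 0.736). These arrays share sample type and slide, and the coefficients describe the levels across both.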

How the data were processed

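Each array of intestine, serum or feces RNA carried 58594 spots. Per the submitters' processing notes, the deposited intensity values come from Agilent Feature Extraction 11.5. The file headers give the processed signal as background-subtracted, and its linear values carry no normalization between arrays. Other flags of 0 or 1, per the file headers, mark spots well above background, saturated (0 spots) or outlying. The authors' series table held the same values within 1%.

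Signals were averaged over a probe's spots that were not outlying (30 spots per miRNA here), summed over its probes, scaled to 1 percentile per array, the 75th, of the miRNAs found on every array compared (268 in intestine, 121 in serum, 326 in feces, 81 over all types), raised to a floor (per array the lowest scaled value of any detected miRNA, then the median of these) and taken to log2. limma 3.58.1 in R 4.3.3 (lmFit, eBayes) tested miRNAs whose number of arrays with detection reached the size of the smaller group, with Benjamini-Hochberg adjustment and a threshold of 0.05; the steps were tested on simulated data. All 8 miRNAs were named in every comparison that tested them. The miRNAs, marker lists and tests were chosen with earlier results of these data known. The number of arrays limits the precision.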

Additional observations from a re-analysis of the deposited data

Results flagged for a closer look

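The dose effects of miR-125a-3p in serum and intestine differed by -2.12 (serum minus intestine), in a test of the difference itself within the limma fit of all 6 groups. It was higher in all 4 irradiated intestine samples than in the controls and lower in all 4 irradiated serum samples. The difference was 0.15 with normexp background correction, and it did not pass without either control serum (-2.15 and -2.09). The same fit gave -1.69 for miR-125b-5p, a value set by the floor at which all irradiated sera stood, and 0 with normexp. No sample stood far from the others of its group by Dixon's criterion in any of the 18 groups of values tested.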

How the results depend on the processing

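Of the 8 miRNAs, 4 passed in intestine, and the count was 1 after normexp background correction, 0 with the percentile over all miRNAs, 8 without scaling or with array weights, 2 without a detection filter, 1 in the fit of all 6 groups, 0 and 1 within slide rows 1 and 2, and 2 to 7 when 1 array was left out. The count of 0 in serum became 1 with the percentile over all miRNAs, the lower floor, array weights, the fit of all groups or the software's total signal (added after the data were seen), and ranged from 0 to 1 with 1 array left out. With the lower floor and with the fit of all groups the call was that of miR-125b-5p, whose irradiated sera were all set to the floor. The 2 differences between feces and serum became 1 after normexp or with averaged log2 probe values, that of miR-125b-5p being lost. Without scaling miR-10a-5p passed as well (0.72, limma adjusted p = 0.0434). The 0 differing dose effects (feces minus intestine) became 8 without scaling or with array weights, 4 with quantile normalization, 1 without a filter, with averaged probe values or with only the groups compared, and 0 to 1 with 1 array left out. All but miR-125a-3p stood at the floor in both feces groups on the main scale and were tested through intestine alone. Their values there are the intestine change with its sign turned, so these counts are no comparison of dose effects.

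Signs turned as follows. In intestine, normexp gave -0.04 for miR-10b-5p and -0.08 for miR-99a-5p. The percentile over all miRNAs gave -0.06 for miR-100-5p, -0.15 for miR-10a-5p, -0.35 for miR-10b-5p, -0.03 for miR-125b-5p and -0.15 for miR-99a-5p. In serum, normexp gave 0.09 for miR-125b-5p. In feces, the change of miR-125a-3p was 0 on the main scale and -0.86 to 0.94 over the other settings. For miR-125a-3p, feces minus intestine became 0.14 (percentile over all), 2.53 (no scaling), 0.78 (quantile) and 0.85 (only groups compared), feces minus serum 1.25 (no scaling), and the serum-minus-intestine dose effect 0.15 (normexp). For the feces-minus-intestine dose effect, the miRNAs whose sign turned were all at the floor in feces on the main scale, so these turns compare no dose effects. There normexp gave 0.07 for miR-100-5p, 0.14 for miR-10b-5p, 0.18 for miR-99a-5p and 0.02 for miR-99b-5p. The percentile over all gave 0.06 for miR-100-5p, 0.15 for miR-10a-5p, 0.35 for miR-10b-5p, 0.03 for miR-125b-5p and 0.15 for miR-99a-5p, and leaving out 1 array gave -0.25 to 0.13 for miR-10b-5p. Of the differences within arrays, normexp gave -0.32 for miR-125a-5p against miR-125b-5p (quantile -0.10), -0.07 for miR-125a-3p against miR-125a-5p, -0.23 for miR-99b-5p against let-7e-5p and -0.05 for miR-99a-5p against let-7c-5p. The cause was not tested.

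Of the 8 that differed between serum and intestine 6 passed with normexp, and of the 8 between feces and intestine 7 to 8 passed with 1 array left out. On the main scale 6 of the 8 stood at the floor in serum and 7 in feces. The direction of these was fixed, so the counts do not measure how stable the differences are. With the replicate block the counts were 4 in intestine, 0 in serum and 0 in feces, and no call changed. Slide row as a block ended the call of miR-125b-5p in intestine (0.49, limma adjusted p = 0.0573) and that of miR-125a-3p between feces and intestine (-0.83, limma adjusted p = 0.0519). Between the doses of a sample type, same-numbered samples had r from -0.56 to 0.44 in their deviations from the group means. In serum both numbers matched their own number best (r of 0.28 and 0.44). These values do not settle whether the numbers pair samples. Pairing of numbers across sample types was not tested, and the fit of all 6 groups treats the arrays as independent. Restriction to miRNAs detected on all 22 arrays gave no value, since none of the 8 was. Signals close to background limit the 5p miRNAs in serum and feces.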

Other observations

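The arm partner of miR-99b-5p showed the reverse detection. miR-99b-3p was detected on 4 of 4 arrays of unirradiated feces and 3 of 4 of irradiated feces, and on 0 intestine and 0 serum arrays. Its summed signal before scaling was 89.8, 79.5, 127.3 and 180 in unirradiated feces, 95.3, 77.8, 51.8 and 38.3 in irradiated feces, and 1.4 to 32.3 over the intestine arrays. Both 3p products of the chromosome 17 cluster that were detected, miR-99b-3p and miR-125a-3p, were thus detected in feces, where the 5p products of the same hairpins were not. miR-125a-3p was also detected on all 8 intestine arrays, so the reverse detection holds for miR-99b-3p alone. Feces arrays detected more miRNAs in general, 378 to 675 at 0 Gy and 445 to 494 at 10 Gy, against 285 to 300 and 332 to 389 in intestine. In RefSeq (GRCm38.p6) miR-99b-3p, with the seed in capitals, has a G and C share of 63.6%.
miR-99b-3p: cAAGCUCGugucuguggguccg

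The let-7 neighbours also parted in feces. let-7a-5p and let-7c-5p were detected on all 8 feces arrays and on 0 serum arrays, with summed signals before scaling of 45.1 to 183.3 and 56.8 to 256 in unirradiated feces. let-7e-5p, from the chromosome 17 cluster, was detected on 0 feces arrays, with signals of -4.5 to 4.4 there and 336.5 to 407.7 in unirradiated intestine. The change of let-7a-5p and let-7c-5p in feces was 0.58 ± 0.64 (SE, limma adjusted p = 0.521) and 0.59 ± 0.54 (limma adjusted p = 0.458), and that of miR-99b-3p -0.22 ± 0.38 (limma adjusted p = 0.685). These patterns were noticed after the data were seen.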
